A study of Homo sapiens with 4 samples.

Results

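The regions described here are the open chromatin sites of the gene-poor human chromosomes 4, 13 and 18 in HCT116 cells, set beside those of the gene-dense chromosomes 16, 19 and 22. Peaks of the 4 deposited lists that shared at least 1 bp were joined into regions, and regions were then taken by chromosome alone, so no measured value chose them. This gave 6655 regions on the gene-poor chromosomes and 8735 on the gene-dense ones, of 78788 in all. HCT116 is an established human colorectal cancer line, and all 4 libraries came from wild-type cells. The tunicamycin (Tm) group held 2 libraries from cells exposed for 6 h to 0.5 µg/ml tunicamycin, which blocks N-glycosylation and so burdens the endoplasmic reticulum with unfolded protein. The DMSO group held 2 libraries from cells given the solvent at 0.1% for 6 h. ATAC-seq was run on 50000 cells per library, and the series calls the libraries biological replicates. Gene names near regions are not given, because no hg19 annotation was used here, and all positions are in hg19.

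Human chromosomes differ widely in how densely genes are packed along them. Gene-rich DNA tends to lie toward the interior of the nucleus, to replicate early and to hold many promoters and enhancers. Gene-poor DNA tends to lie at the nuclear rim, to replicate late and to be bound to the lamina as compact chromatin, and chromosomes 18 and 19 are the textbook pair for this contrast. A transposase enters compact chromatin poorly, so ATAC-seq peaks mark the promoters, enhancers and other sites that stand open within it.

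The labels of gene-poor and gene-dense were checked against RefSeq (GRCh38.p14), using only the chromosome each protein-coding gene is assigned to. Chromosomes 4, 13 and 18 hold 770, 338 and 270 protein-coding genes there. Chromosomes 16, 19 and 22 hold 854, 1451 and 451. Set over the hg19 span between the first and the last region of each chromosome, this is 3.47 to 4.05 genes per Mb for the gene-poor chromosomes and 9.48 to 24.6 for the gene-dense ones. The other 17 chromosomes had 4.89 to 14.5, so the 3 gene-poor chromosomes were the lowest of all 23 by this measure. The gene-dense chromosomes were not the 3 highest. Chromosome 17, at 14.5, lay above chromosomes 16 and 22, and chromosome 11, at 9.66, lay above chromosome 16.

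A limit of the lists touches chromosome 13 more than the others. The deposited peak names are numbered along the genome, and between neighbouring peaks of chromosome 13 there were 98, 91, 99 and 105 numbers with no peak in DMSO replicates 1 and 2 and Tm replicates 1 and 2. These were 7.89% to 8.53% of its numbers. On chromosome 18 they were 1.31% to 1.66%, on chromosome 4 0.237% to 0.316%, and on the 3 gene-dense chromosomes together 0.193% to 0.233%. The peaks behind these numbers were not analysed here, so values for chromosome 13 describe the listed peaks only.

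Open chromatin was sparse on the gene-poor chromosomes. They held 18.3 regions per Mb, against 47.7 per Mb on the gene-dense chromosomes and 27.0 per Mb over all 23 chromosomes. They made up 12.4% of the listed span of the genome but held 8.45% of its regions, while the gene-dense chromosomes made up 6.26% of the span and held 11.1% of the regions. Chromosome 13 had 16.1 regions per Mb, chromosome 18 had 18.1 and chromosome 4 had 19.5. The lowest gene-dense value was 34.9 on chromosome 16, followed by 54.4 on chromosome 22 and 63.5 on chromosome 19, so the classes did not overlap. Chromosome X lay below all of them with 8.81, and chromosome 17, at 50.6, stood between chromosomes 16 and 22.

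The same sparseness appeared in every library. Peaks per Mb on the gene-poor chromosomes were 12.8 in both DMSO libraries, 13.04 in Tm replicate 1 and 14.2 in Tm replicate 2. On the gene-dense chromosomes they were 35.0, 35.9, 36.7 and 39.1 in the same order. The mean was 13.2 ± 0.653 against 36.7 ± 1.73 (SD, n = 4 libraries), a ratio of 0.360, and the gap was far larger than the spread between libraries. Two-sided exact sign-flip permutation over the 4 libraries gave p = 0.13, the smallest value that 4 paired values allow, with the gene-poor chromosomes lower in 4 of 4. Such a p covers the spread between libraries only, since the same chromosomes enter each pair. It could not pass 0.05 for any comparison of the classes, and p = 0.13 by the same exact permutation test also held for the spacing, peak width, percentile rank, summit read, local background and common share comparisons given below. Counting the skipped peak numbers as peaks, an alternative chosen after the data were seen, gave a log2 ratio of -1.44 in place of -1.47.

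**Figure D1:**
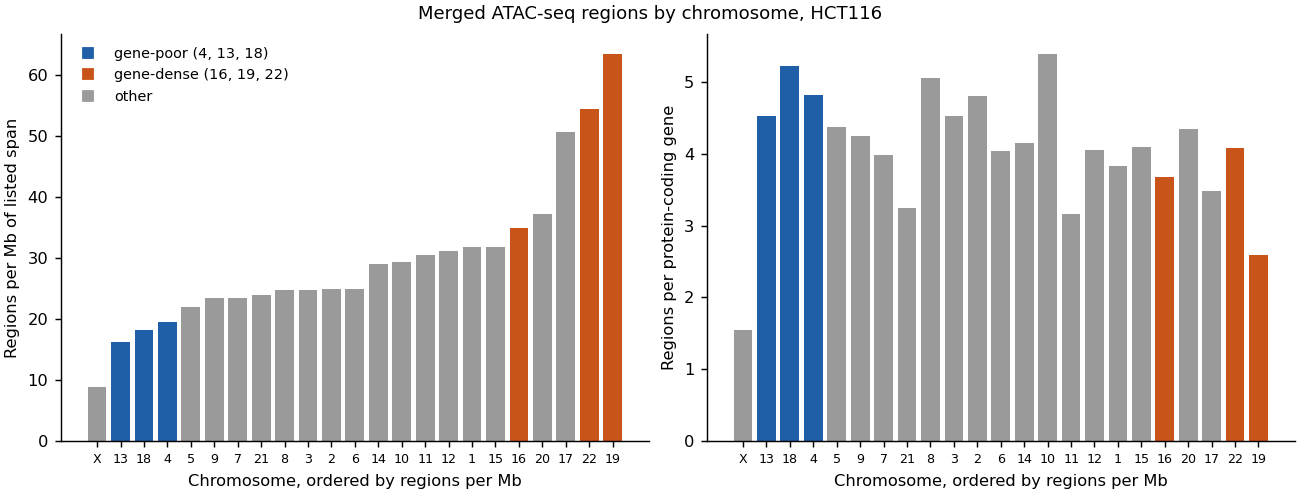
Merged regions per Mb of listed span (left) and per RefSeq protein-coding gene (right) for 23 chromosomes, both in order of regions per Mb, with 1 bar per chromosome. The gene-poor chromosomes 4, 13 and 18 stand at 16.1 to 19.5 per Mb, below every other autosome, but at 4.54 to 5.22 regions per gene they stand above the gene-dense chromosomes.

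Counted per gene the order of the classes turned. The gene-poor chromosomes held 4.83 regions per protein-coding gene and the gene-dense ones 3.17, a ratio of 1.52. Chromosomes 13, 4 and 18 had 4.54, 4.82 and 5.22, above the 2.59, 3.68 and 4.08 of chromosomes 19, 16 and 22. Among the other 17 chromosomes the value ran from 1.54 on X to 5.40 on chromosome 10, so high values were not particular to the gene-poor class. With only the regions listed in all 4 libraries, the classes overlapped: 2.11 to 2.73 per gene against 1.45 to 2.27. Over all 23 chromosomes, Spearman's rho of regions per gene with genes per Mb was -0.76, and that of regions per Mb with genes per Mb was 0.86. These are descriptions across chromosomes of the same 4 libraries, and both pairs share gene number or span.

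Spacing showed where the sparseness lay. The median distance between the centres of neighbouring regions was 16811 bp on the gene-poor chromosomes and 7439 bp on the gene-dense ones. By chromosome it was 15145 bp on 18, 17110 bp on 4 and 18217 bp on 13, against 6348 bp on 19, 8110 bp on 16 and 9011 bp on 22. Close neighbours were nearly as frequent in both classes: 15.0% of spacings on gene-poor and 18.9% on gene-dense chromosomes were under 1 kb. The classes drew apart with distance. At the 10th percentile of spacings the ratio of gene-poor to gene-dense was 1.21, at the 25th 2.10, at the 50th 2.26, at the 75th 2.77 and at the 90th 3.10. Spacings over 100 kb made up 11.8% of those on gene-poor chromosomes (787 of 6652) and 2.06% of those on gene-dense ones (180 of 8732). Within single libraries the median distance between peaks was 23559 ± 1023 bp on gene-poor and 9935 ± 502 bp on gene-dense chromosomes (SD, n = 4), and it was longer on the gene-poor ones in every library.

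**Figure D2:**
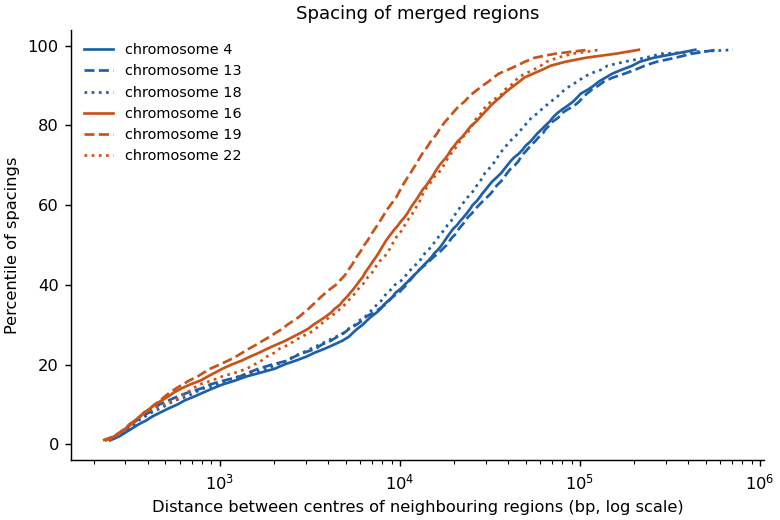
Percentile of spacings (vertical axis) against the distance between centres of neighbouring regions in bp (log scale) for the gene-poor (blue) and gene-dense (orange) chromosomes, 1 line per chromosome. The lines lie close together at short distances and separate further up, with medians of 15145 to 18217 bp against 6348 to 9011 bp.

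Long stretches without a peak in any library were found in both classes. On chromosome 4 the longest ran from 58293214 to 68198435, over 9.91 Mb, and the next from 48972889 to 52697378, over 3.72 Mb. On chromosome 13 the longest were at 53824684 to 59892586 (6.07 Mb) and at 82061527 to 85444438 (3.38 Mb). On chromosome 18 they were at 61646895 to 66373297 (4.73 Mb) and at 14458855 to 18654895 (4.20 Mb). Within the last of these 1 peak number was skipped in DMSO replicate 1, Tm replicate 1 and Tm replicate 2, and none was skipped within the other 5. Chromosome 16 held a longer one, of 11.4 Mb at 35143572 to 46588361 with 1 number skipped in 3 libraries, so length alone did not separate the classes. Whether such a stretch can be mapped by reads was not tested here, so these lengths are no measure of closed chromatin in either class. Spacings over 500 kb numbered 71 on gene-poor and 24 on gene-dense chromosomes. They took up 27.1% and 25.6% of the distance between regions, with the same limit. The gene-dense share was uneven, at 35.5% on chromosome 16, 21.2% on chromosome 19 and 6.59% on chromosome 22. Chromosome 18 had the highest such share of the gene-poor chromosomes, at 42.5%, although its median spacing was the shortest of the 3.

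Some megabases of the gene-poor chromosomes were nevertheless dense. The window of 1 Mb with the most regions on chromosome 4 was at 6000001 to 7000000, with 80 regions, of which 54, 62, 58 and 64 were listed in DMSO replicates 1 and 2 and Tm replicates 1 and 2. On chromosome 18 it was at 9000001 to 10000000 with 58 regions, and on chromosome 13 at 111000001 to 112000000 with 59. On the same grid of whole megabases the densest windows of chromosomes 16, 19 and 22 held 128, 152 and 105 regions. The order of these depended on where windows start: counted from the first region of each chromosome, the densest held 126, 148 and 138, and those of chromosomes 4, 13 and 18 held 78, 56 and 55. In the latter windows the median was 15 regions on gene-poor and 45 on gene-dense chromosomes. Windows with 60 or more regions numbered 4 of 365 and 70 of 185, and all 4 of the gene-poor ones lay on chromosome 4.

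Peaks on the gene-poor chromosomes were also slightly narrower. Their median width was 155, 156, 155 and 157 bp in DMSO replicates 1 and 2 and Tm replicates 1 and 2, against 166, 166, 164 and 167 bp on the gene-dense chromosomes. The ranges did not overlap, and the mean difference was -10.0 ± 0.816 bp (SD, n = 4). Peaks under 130 bp made up 28.9% ± 0.600 of gene-poor and 24.6% ± 0.772 of gene-dense peaks (SD, n = 4). Within regions listed in all 4 libraries the difference was -7.75 ± 1.89 bp (SD, n = 4). Chromosome 13 did not share it against chromosome 22. Its medians there were 183, 180, 184 and 187 bp in the same order, against 180, 180, 182 and 187 bp. Chromosomes 4 and 18 lay below each gene-dense chromosome in every library. Merged regions had a median width of 168 bp against 181 bp, and those not common to all 4 libraries 134.5 and 136 bp.

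Fewer reads stood at the summits of peaks on the gene-poor chromosomes. The number of reads at a summit and the local background were recovered from the authors' fold and −log10 p-value of each peak. The median summit carried 13, 13, 14 and 14 reads on gene-poor and 17, 17, 17 and 18 reads on gene-dense chromosomes in DMSO replicates 1 and 2 and Tm replicates 1 and 2. Mean summit reads were 16.7 ± 0.779 and 20.7 ± 0.924 (SD, n = 4 libraries), a ratio of 0.804. The median local background was lower still, at 0.359 ± 0.00728 reads per position against 0.659 ± 0.0207, a ratio of 0.544. The authors' fold, which sets the summit against the local background, separated the classes less, with a median of 10.1 ± 0.330 on gene-poor and of 10.4 ± 0.291 on gene-dense chromosomes (SD, n = 4). The fold was lower on gene-poor chromosomes in 3 of 4 libraries, and the two-sided exact sign-flip permutation test gave p = 0.25. Ranked by q-value within each library's own list, gene-poor peaks had a median percentile of 47.0 ± 0.730 and gene-dense peaks 52.0 ± 0.705 (SD, n = 4).

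By mean summit reads, chromosome X was lowest of the 23 with 12.2 ± 0.488, followed by chromosome 4 with 16.4 ± 0.815 and chromosome 18 with 16.8 ± 0.695 (SD, n = 4). Chromosome 13, at 17.3 ± 0.799, was the fifth from the bottom and did not differ from chromosome 21, at 17.2 ± 0.691, beyond the spread between libraries. Chromosomes 16, 17 and 19 were the 3 highest. The number of copies of each chromosome in these cells was not tested here as a source of this order.

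Regions on the gene-poor chromosomes were less often listed in all 4 libraries. Such common regions were 3149 of 6655, or 47.3% (Wilson 95% interval 46.1% to 48.5%), against 4846 of 8735, or 55.5% (54.4% to 56.5%), on gene-dense chromosomes and 51.3% of all regions. Regions listed in 1 library only were 24.4% and 20.02%. Intervals cover counting error only. Per library, the share of gene-poor peaks that lay in common regions was 69.0% and 69.2% in the DMSO libraries and 67.8% and 62.5% in Tm replicates 1 and 2. On gene-dense chromosomes the shares were 77.0%, 75.2%, 73.5% and 68.8%. Each library thus showed the gene-poor share below the gene-dense one, by 6.51 ± 1.01 percentage points on average (SD, n = 4).

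The size and direction of this gap depended on what was held alike. Among peaks with 3 to 8 summit reads, 26.4% ± 5.50 of gene-poor and 26.7% ± 6.05 of gene-dense peaks were in common regions (SD, n = 4 libraries). At 9 to 12 reads the shares were 57.2% ± 7.14 and 53.9% ± 7.78, and at 13 to 20 reads 80.5% ± 5.09 and 77.0% ± 6.21. From 21 reads up they were 96.8% ± 1.47 and 95.8% ± 1.43. In the last 3 classes of reads the gene-poor share was the higher one in 4 of 4 libraries, by 3.31 ± 1.18, 3.47 ± 1.42 and 1.02 ± 0.101 percentage points (two-sided exact sign-flip permutation p = 0.13 each). In the lowest class it was lower in 2 of 4 (p = 0.75 by the same exact test). The classes differed in how many weak summits they held: 23.9% ± 1.80 of gene-poor and 13.9% ± 0.879 of gene-dense peaks had 3 to 8 reads.

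Held alike by percentile rank instead, gene-poor peaks stayed less often common. The gap was -5.16 ± 2.31 percentage points from the 0 to the 25th percentile, -4.70 ± 0.789 from the 25th to the 50th, -2.56 ± 1.38 from the 50th to the 75th and -1.92 ± 0.529 above (SD, n = 4). Each was below 0 in 4 of 4 libraries (two-sided exact sign-flip permutation p = 0.13 each). The read and rank classes were chosen after the data were seen.

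**Figure D3:**
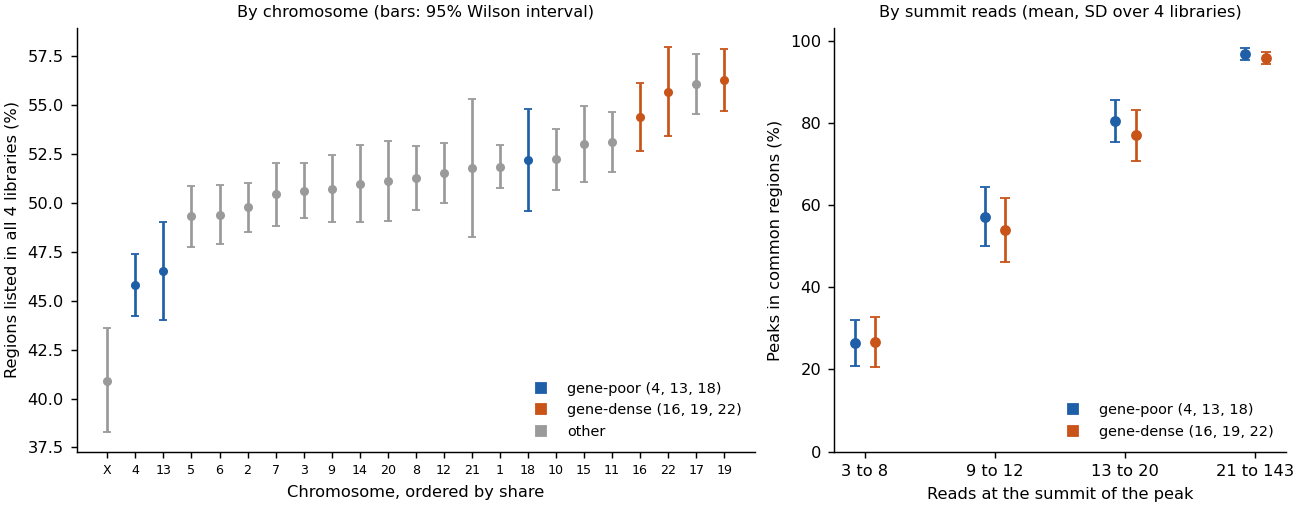
Left: share of regions listed in all 4 libraries by chromosome, with Wilson 95% intervals, in order of the share. Right: share of peaks lying in common regions by reads at the summit, as mean and SD over 4 libraries; chromosomes 4 and 13 lie near the lower end on the left, at 45.8% and 46.5%, and the classes nearly meet on the right.

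Chromosome 18 did not follow chromosomes 4 and 13 in this respect. Common regions were 52.2% of those on chromosome 18 (Wilson 95% interval 49.6% to 54.8%), 46.5% on chromosome 13 (44.0% to 49.0%) and 45.8% on chromosome 4 (44.2% to 47.4%). Chromosomes 13 and 4 were not separated by their intervals, and that of chromosome 18 overlapped with chromosome 16 at 54.4% (52.6% to 56.1%). Per library the share of peaks in common regions was 74.3%, 71.7%, 72.2% and 66.1% on chromosome 18 and 67.1%, 68.5%, 66.9% and 61.3% on chromosome 4, in the order DMSO replicates 1 and 2 and Tm replicates 1 and 2. Chromosome 18 was higher in all 4 libraries, by 5.13 ± 1.65 percentage points over chromosome 4 and by 4.85 ± 1.34 over chromosome 13 (SD, n = 4, two-sided exact sign-flip permutation p = 0.13 each). Peaks under 130 bp were fewer on chromosome 18, at 27.0% ± 0.718, than on chromosome 4, at 29.5% ± 1.06 (SD, n = 4). Its mean summit reads lay above those of chromosome 4 by 0.371 ± 0.152 but below those of chromosome 13 by 0.512 ± 0.178 reads, in 4 of 4 libraries each. The skipped peak numbers of chromosome 13 may bear on its values, which was not tested for shares.

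Regions far from any other were more frequent in the gene-poor class. Those at least 50 kb from their nearest neighbour were 610 of its regions, or 9.17%, against 109, or 1.25%, on gene-dense chromosomes. Of these isolated regions 40.5% (Wilson 95% interval 36.7% to 44.4%) and 43.1% (34.2% to 52.5%) were common to all 4 libraries, so the intervals overlapped. With a neighbour within 10 kb the shares were 48.4% (46.9% to 49.9%) and 54.9% (53.7% to 56.1%). The most isolated common region of chromosome 13, at 69501598 to 69501784, lay 638 kb from its nearest neighbour and had 8, 6, 11 and 11 summit reads in DMSO replicates 1 and 2 and Tm replicates 1 and 2. On chromosome 18 the region at 66584045 to 66584242 lay 202 kb from the next and had 8, 5, 8 and 8 reads. On chromosome 4 the region at 190714275 to 190714493 lay 591 kb from the next listed region and had 18, 16, 19 and 20 reads, but 1 to 3 peak numbers were skipped just before it in each library. The regions of chromosomes 13 and 18 thus lay below the median summit of each list (15, 15, 15 and 16 reads), and that of chromosome 4 above it. That all 3 were listed in every library follows from their choice among common regions. On chromosome 13 both Tm values lay above both DMSO values, at mean percentiles among common regions of 30.6 and 11.4, but limma did not call the change (adjusted p = 0.784).

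The strongest common region of each chromosome was chosen by its mean percentile rank over all 4 libraries. A high rank in every list and a small change of rank thus follow from the choice. On chromosome 4 the region at 111544046 to 111544525 had 113 and 108 summit reads after DMSO and 106 and 119 after Tm, and lay near the top of each library's list. On chromosome 18 the region at 14132388 to 14132688 had 69 and 71 against 71 and 80 reads. On chromosome 13 the region at 44716030 to 44716325 had 76 and 86 against 75 and 98 reads. In each of the 3 the Tm libraries held a value at or above every DMSO value, but the groups overlapped or met. limma score changes were -0.03 to 0.03, with limma adjusted p = 0.990 for each of the 3.

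The share of peaks that lay on gene-poor chromosomes differed between the treatments by less than the spread between the Tm libraries. They held 8.22% and 8.20% of the peaks of DMSO replicates 1 and 2, and 8.10% and 8.22% of those of Tm replicates 1 and 2. The means were 8.21% ± 0.00971 and 8.16% ± 0.0862 (SD, n = 2 each), a difference of -0.0484 percentage points (two-sided exact permutation p = 1.0, where 2 against 2 libraries cannot go below 0.33). For gene-dense chromosomes the shares were 11.5% ± 0.198 and 11.5% ± 0.0435 (SD, n = 2 each, exact permutation p = 1.0). The number of gene-poor peaks was 4649 and 4640 after DMSO and 4736 and 5141 after Tm, a ratio of means of 1.06, of which most came from Tm replicate 2. By chromosome this ratio was 1.06 on chromosomes 4 and 18 and 1.07 on chromosome 13, within the 1.02 to 1.09 of the other 17 chromosomes.

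The gap in rank between the classes was smaller after Tm, though mainly in 1 library. The gene-poor minus gene-dense difference in median percentile rank was -5.92 and -5.84 in DMSO replicates 1 and 2, -2.89 in Tm replicate 1 and -5.22 in Tm replicate 2. Both Tm values lay above both DMSO values, with a difference of means of 1.83 percentile points (exact permutation p = 0.33, the smallest possible). This was not so for the class gaps in common share, peak width, peak width in common regions and mean summit reads. In each of these the values of the treatments overlapped or met. Median peak width on gene-poor chromosomes was 155.5 ± 0.707 bp after DMSO and 156.0 ± 1.41 bp after Tm (SD, n = 2, exact permutation p = 1.0). In common regions it was 176 and 177 bp after DMSO and 179 and 183 bp after Tm, so the groups did not overlap (exact permutation p = 0.33). Much the same was seen elsewhere: over all chromosomes the means were 179.5 and 183 bp, with groups that overlapped. The groups did not overlap on chromosomes 13 and 18, nor on 1, 2, 5, 7, 22 and X, but did on chromosome 4. Mean summit reads moved along with this, from 16.1 ± 0.315 to 17.2 ± 0.747 (SD, n = 2), and were highest in Tm replicate 2. The part of read depth in the wider peaks was not tested.

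**Figure D4:**
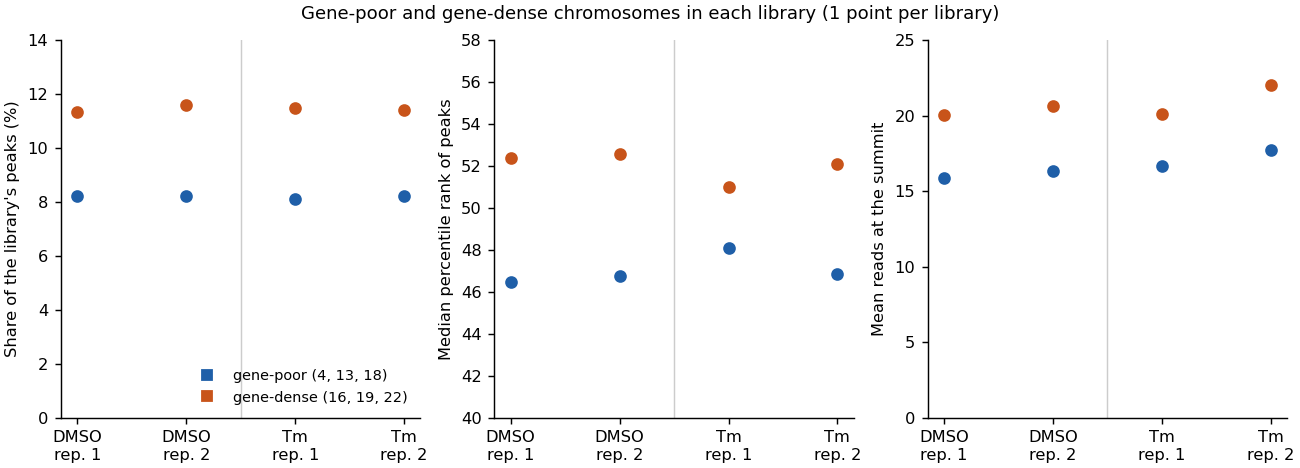
Share of each library's peaks (left), median percentile rank of peaks (middle, axis from 40) and mean reads at the summit (right) on gene-poor (blue) and gene-dense (orange) chromosomes, 1 point per library. In each panel the gene-poor point lies below the gene-dense one in all 4 libraries, and the share of peaks on gene-poor chromosomes stays between 8.10% and 8.22%.

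Regions listed in both libraries of 1 treatment and in neither of the other were scarce on the gene-poor chromosomes, as elsewhere. Gained regions are those listed in both Tm libraries and in neither DMSO library, lost regions the reverse, and mixed regions those listed in exactly 1 library of each group. No test per region can be had from presence alone in 2 libraries a group. There were 231 gained regions, or 3.47% of gene-poor regions (Wilson 95% interval 3.06% to 3.94%), where 3.65% of all regions were gained and 3.35% (3.00% to 3.75%) of gene-dense ones. There were 145 lost regions, or 2.18% (1.85% to 2.56%), where 1.86% of all regions were lost and 1.47% (1.23% to 1.74%) of gene-dense ones. Mixed regions were 576, or 8.66%, where the share was 8.07% of all regions and 7.56% of gene-dense ones. The 4 mixed patterns held 108 to 189 gene-poor regions each, so the gained count lay above them and the lost count within them.

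By chromosome, lost regions were 2.29% on chromosome 4, 2.13% on chromosome 18 and 1.96% on chromosome 13, against 1.14% to 1.65% on the gene-dense chromosomes. The other 17 ran from 1.42% to 2.60% and spanned most of both classes. Gained regions were 3.12% to 3.78% on gene-poor and 2.96% to 3.75% on gene-dense chromosomes, which overlapped. Gained regions outnumbered lost ones by 1.59 to 1 on gene-poor and 2.29 to 1 on gene-dense chromosomes, or 61.4% (Wilson 95% interval 56.4% to 66.2%) and 69.6% (65.0% to 73.8%) of both kinds together. The balance changed with the length of the lists, of which that of Tm replicate 2 was the longest. With every list cut to the length of the shortest, there were 169 gained and 198 lost regions on gene-poor chromosomes, a ratio of 0.854, and the gene-dense ratio was 1.14. With a −log10 q of at least 10 the ratios were 3.26 and 3.09, so that the order of the classes turned.

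**Figure D5:**
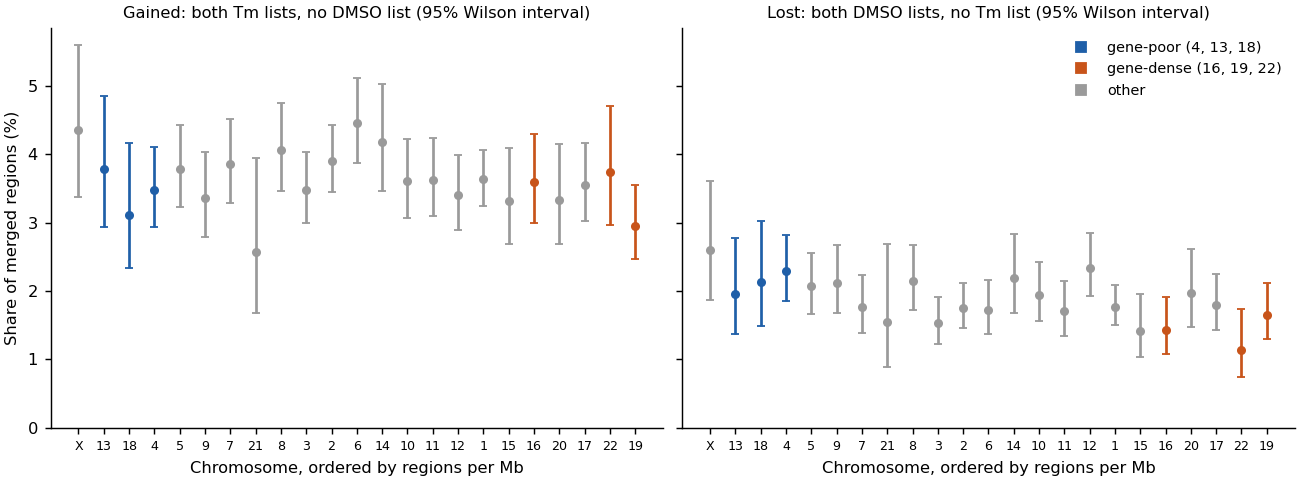
Share of merged regions gained (left) and lost (right) with tunicamycin by chromosome, with Wilson 95% intervals for counting error, in order of regions per Mb. Gene-poor (blue) and gene-dense (orange) chromosomes overlap for gained regions, whereas lost shares are 1.96% to 2.29% and 1.14% to 1.65%, both nearly within the range of the other chromosomes (grey).

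Gained and lost regions of the gene-poor chromosomes were weak. Gained ones had a median of 8 summit reads in both Tm libraries and at most 26 and 24, and lost ones had a median of 8 in both DMSO libraries and at most 26 and 23. Their median peak widths were 124 to 128 bp. Gained regions lay at a median percentile rank of 23.3 and 23.5 in Tm replicates 1 and 2, and lost regions at 18.9 and 18.5 in DMSO replicates 1 and 2. Low rank was not particular to this class. On gene-dense chromosomes the ranks were 21.0 and 22.8 for gained and 18.8 and 17.4 for lost regions. Their median summit reads there were 9 to 11 and their median peak widths 122 to 127.5 bp. On the gene-poor chromosomes 19.9% of the gained, 15.2% of the lost and 18.2% of the mixed regions lay within 1 kb of a common region. No such share was counted over all regions or on gene-dense chromosomes. Whether these shares are high or low is therefore not known.

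The 6 gained regions of highest rank included 5 on chromosome 4 and 1 on chromosome 13. The highest, on chromosome 4 at 106321054 to 106321199, had 24 and 19 summit reads in Tm replicates 1 and 2 and no listed peak after DMSO. That at 102061525 to 102061657 on the same chromosome came second, with 26 and 24 reads in peaks of 118 and 104 bp. Others lay on chromosome 4 at 3647149 to 3647261, at 182223013 to 182223140 and at 57047430 to 57047591, with 13 to 24 reads. That of chromosome 13 was at 46407894 to 46408018, where Tm replicates 1 and 2 had 18 and 17 reads. The 6 lost regions of highest rank comprised 5 on chromosome 4 and 1 on chromosome 18. The highest was at 107819905 to 107820024 on chromosome 4, with 26 and 19 reads in DMSO replicates 1 and 2. It was followed by 114249814 to 114249946 with 21 and 19 reads. The others were on chromosome 4 at 189702910 to 189703045, 9154896 to 9155064 and 37743910 to 37744028, with 13 to 23 reads. That of chromosome 18, at 28979759 to 28979896, had 12 and 21 reads. It lay 358 bp from the centre of another region, and that at 9154896 lay 207 bp from one.

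A change of rank was called at 2 of the 3149 common regions of the gene-poor chromosomes. The q-values of common regions were ranked within each library and compared as normal scores with limma over all 40447 of them, with Benjamini-Hochberg adjustment at 0.05. Of all common regions 0.0519% were called, 0.0346% higher and 0.0173% lower after Tm. The gene-poor chromosomes had 1 called higher and 1 called lower, and the gene-dense ones 1 and 3. At an unadjusted p under 0.05 limma had 261 gene-poor regions, 131 higher and 130 lower, or 8.29%, where 7.33% of all common regions fell under that level.

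The region that fell was a broad and strong one on chromosome 4, at 775543 to 776277. Its summit had 77 and 93 reads in DMSO replicates 1 and 2 and 47 and 51 in Tm replicates 1 and 2, so both Tm values lay well below both DMSO values. Its peaks spanned 517 and 690 bp after DMSO and 728 and 716 bp after Tm, so a lower summit did not go with a narrower peak. Its mean percentile among the common regions was 99.5 after DMSO and 87.1 after Tm, and limma put the change in score at -1.47 ± 0.254 (SE, adjusted p = 0.00252). Without DMSO replicate 2 the change was -1.29 and was no longer called (limma adjusted p = 0.0703). Leaving out any other library kept the call, with limma adjusted p-values of 0.00328 to 0.0147.

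The region that rose lay on chromosome 13 at 22010025 to 22010239. It had 8 and 6 summit reads after DMSO and 27 and 25 after Tm, in peaks of 129 and 151 bp and of 215 and 190 bp. The local background was 0.405 and 0.349 reads per position after Tm. After DMSO it was 0.14 and 0.147, the lowest value at any peak of DMSO replicates 1 and 2. Its mean percentile among the common regions was 11.4 after DMSO and 78.2 after Tm, and the limma estimate of the change was 2.06 ± 0.401 (SE, adjusted p = 0.0110). The call held without DMSO replicate 1 (limma adjusted p = 0.00246). It was lost without DMSO replicate 2 (0.0669), without Tm replicate 1 (0.425) and without Tm replicate 2 (0.120), with a score change of 1.67 to 2.16 in these 3 fits. When the fold was ranked in place of the q-value, limma called neither region, with adjusted p-values of 0.251 on chromosome 4 and 0.0630 on chromosome 13.

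No other common region of these chromosomes passed the test. The largest rise on chromosome 4, at 40992660 to 40992844, went from 3 and 6 summit reads after DMSO to 10 and 12 after Tm (limma score change 2.01 ± 0.671, SE, adjusted p = 0.408). The largest on chromosome 18, at 61637190 to 61637351, went from 12 and 15 to 23 and 39 reads (1.51 ± 0.434, SE, limma adjusted p = 0.270). Chromosome 4 had its largest fall at 4765154 to 4765397, from 16 and 18 to 9 and 7 reads. That of chromosome 13, at 109833189 to 109833424, was from 17 and 16 to 9 and 5 reads. On chromosome 18 the region at 60649950 to 60650143 went from 11 and 8 to 4 and 4 reads. limma adjusted p-values for these 3 were 0.174 to 0.264. The groups did not overlap in any of them, but the regions were chosen for the size of their fall. Of all common regions, 18% had both Tm ranks above both DMSO ranks and 18.3% had both below.

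Across all common regions the gene-poor chromosomes moved little as a group. In 577 regions (18.3%) the lower Tm rank exceeded the higher DMSO rank, against 18% of all common regions. The reverse held in 556 (17.7%), against 18.3% of all. On gene-dense chromosomes the shares were 16.3% above and 19.8% below. The median score change was 0.02 on gene-poor and -0.03 on gene-dense chromosomes, with a middle range of -0.27 to 0.30 on the gene-poor ones. These shares count regions of the same 4 libraries and carry no test of the treatment.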

How the data were processed

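One peak list per library was used, in a narrowPeak layout on hg19. Per the submitters' processing notes, MACS2 2.2.7.1, Bowtie2 2.3.5.1, Picard 2.18.23, deepTools, SAMtools and Trim Galore were used. Their settings, any filter and any shift of reads for the transposase were not given in the sources used here. For each peak the authors deposited a score, a fold (a ratio to local background within the library) and −log10 p- and q-values. The deposited lists also give where in each peak its summit lies, which was not analysed. No read totals are in the lists, so depth per library is not known. Median summit reads were 15, 15, 15 and 16 for DMSO replicates 1 and 2 and Tm replicates 1 and 2. The lowest local background at any peak was 0.140, 0.147, 0.140 and 0.143 reads per position in the same order. Peaks numbered 56581, 56566, 58467 and 62526.

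Summit reads were recovered as the whole number for which the deposited fold and the Poisson −log10 p-value match within 0.001, which was possible for 100% of peaks. Where more than 1 number matched, the largest was taken. It is not known whether the pileup counts reads, fragments or cut ends, so a read here is 1 unit of that pileup. Percentile ranks are of the −log10 q within a list. The span of a chromosome runs from its first to its last region. Gene numbers came from RefSeq, GRCh38.p14, by chromosome only.

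Peaks were merged and summarised with Python 3.11.15, pandas 2.3.3, numpy 2.4.6, scipy 1.17.1 and statsmodels 0.14.6, and ranks were compared with limma 3.58.1 in R 4.3.3 (trend = TRUE). The 2 classes were compared by exact sign-flip permutation over libraries and the treatments by exact permutation, all two-sided. The merging and limma steps were tested on simulated data. Named regions were the 6 gained and 6 lost regions of best mean rank, and for each of the 3 chromosomes the strongest and the most isolated common region, the largest rise and fall in score and the longest stretches without a region, together with every region called by limma. The densest windows were added after their values were seen. The chromosomes, lists and tests were chosen with earlier results of these data known.

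Alternatives were stricter q-values, lists of equal length, peaks of at least 130 bp, a reciprocal overlap of 50%, merging up to 250 bp, occupied windows as denominator, each library left out, the fold ranked in place of the q-value and the replicate number as a block. Skipped peak numbers counted as peaks, and chromosome 13 left out, were added after the data were seen.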

Additional observations from a re-analysis of the deposited data

How the results depend on the processing

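The classes kept their order under every alternative run for peaks per Mb (11 alternatives, ratio 0.339 to 0.376), spacing (9, ratio 2.33 to 2.56), peak width (9, -11.0 to -8.0 bp), the share of peaks in common regions (11, -6.71 to -4.52 percentage points) and median percentile rank (9, -5.66 to -4.28). These include the fits without chromosome 13. Holding summit reads alike was not among these alternatives. There the gene-poor common share was the higher one from 9 reads up, so the order of that share does depend on it. Chromosome lengths of hg19 as denominator were not run, since no reference used here gives them. The share of peaks on gene-poor chromosomes, Tm minus DMSO, changed sign to 0.0234 percentage points with a −log10 q of at least 5, to 0.175 with at least 10 and to 0.0247 with peaks of at least 130 bp, and was -0.109 to 0.0125 with a library left out. For gene-dense chromosomes it was 0.00972 with lists of equal length and -0.146 to 0.134 with a library left out. The cause was not tested.

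Gained regions on gene-poor chromosomes numbered 500 to 782 and lost ones 279 to 500 with a library left out, where a single list stands for its group. Lost regions fell to 65 with a −log10 q of at least 10, from fewer peaks. The share of lost regions was higher on gene-poor than on gene-dense chromosomes in 10 of 10 alternatives, and so was that of gained ones. limma called 1 gene-poor region with a −log10 q of at least 10, 1 with peaks of at least 130 bp, 1 to 3 with a library left out, where the lone library of a group is assumed to vary like the others, and 0 with the fold ranked, with 273 (8.67%) then at an unadjusted p under 0.05, where 6.99% of all common regions were. With the replicate number as a block, limma called 3 gene-poor regions and 35 in all, in place of 2 and 21. The deviations of same-numbered libraries from their group means correlated at 0.0111 over 40447 regions, so the numbers are not taken to pair the libraries. Few reads per summit limit every call of presence.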
